A study of Mus musculus with 35 samples.

Results

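The genes described here are 10 transcription factors that specify photoreceptors in the mouse retina: Otx2, Neurod1, Crx, Rorb, Prdm1, Nrl, Nr2e3, Mef2d, Thrb and Rxrg. They were taken by name, as 10 of 13235 protein-coding genes whose starts could be placed on the mm9 genome. For each gene the chromatin was read within 2 kb of its start and across the gene with 20 kb on each side. The start of each gene was set on mm9 by shifting its RefSeq position on GRCm38.p6 until neighbouring gene starts met the H3K4me3 peaks of the wild-type retina at birth.

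The series profiled the remodelling ATPase Brg1 and 3 histone marks by ChIP-Seq (chromatin immunoprecipitation with sequencing) in mouse retina, and 27 of its 35 samples came with a list of enriched regions. Brg1 was read from 1 library of P0 Brg1-FLAG retinae, a knock-in whose tagged protein was precipitated by its FLAG epitope, from flash-frozen tissue supplied by another laboratory. Wild-type retinae were profiled at P0 (the day of birth), P12, P14 and P21, with 2 libraries per mark and stage except for 1 each of H3K27Ac and H3K4me3 at P12. Brg1-deficient retinae were profiled at P12, with 2 libraries of H3K27Ac and 1 each of H3K4me3 and H3K27me3. In these animals a Chx10-Cre transgene, active in retinal progenitor cells in a mosaic pattern, removed a Lox/Lox Brg1 allele, so that stripes of cells keep Brg1, and smaller eyes were favoured for ChIP-Seq. No strain is labelled. H3K27Ac and H3K4me3 were precipitated with 1 antibody each throughout. H3K27me3 used one antibody at P0, P14 and P21 and another at P12. The labels do not say that replicates came from separate animals, so the p-values below measure the spread between these libraries, which may be technical.

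H3K27Ac marks active promoters and enhancers, H3K4me3 marks promoters that are active or poised, and H3K27me3 marks chromatin held silent by Polycomb proteins. In the developing retina Otx2 directs newly born cells to the photoreceptor and bipolar fates and activates Crx, the homeodomain factor that drives most photoreceptor genes. Nrl then commits a cell to the rod fate and activates Nr2e3, an orphan nuclear receptor that represses cone genes, while the thyroid hormone receptor Thrb and the retinoid receptor Rxrg act in cones.

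Peak counts ranged from 17433 to 50005 for H3K27Ac and from 18534 to 24124 for H3K4me3, and the Brg1 list held 50861 peaks. The height of a peak is the fold enrichment in the deposited lists, and the read depth behind it is unknown. The replicates of H3K27Ac were uneven: 17433 and 50005 peaks at P14, 18718 and 45833 at P21. Of the rod markers that could be placed (Sag and Pde6b), 0 of 2 had an H3K27Ac peak at the start in either P0 library and 2 of 2 had one in every later library. Their summed H3K27Ac height was 34.5 at P12, 35.7 and 37.4 at P14, and 41.7 and 37.7 at P21, and the part of this shift in the results below was not tested. The lens markers and the blood and immune cell markers had no H3K27Ac or H3K4me3 peak in any wild-type library. Rods are born mostly around birth, and in these whole retinae a larger share of rods and more of a mark per cell cannot be told apart.

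The sequence just upstream of each start is given first, because the promoters of the 10 genes fall at both ends of the range of CpG content. The 250 bases before the start come from RefSeq on GRCm38.p6, on the strand of the gene, and every CpG is in capitals. The printed windows are chr14:48667645-48667894 (minus strand) for Otx2, chr2:79456637-79456886 (minus) for Neurod1, chr7:15879956-15880205 (minus) for Crx, chr14:55524253-55524502 (minus) for Nrl, chr9:59950080-59950329 (minus) for Nr2e3 and chr14:17660710-17660959 (plus) for Thrb.
Otx2: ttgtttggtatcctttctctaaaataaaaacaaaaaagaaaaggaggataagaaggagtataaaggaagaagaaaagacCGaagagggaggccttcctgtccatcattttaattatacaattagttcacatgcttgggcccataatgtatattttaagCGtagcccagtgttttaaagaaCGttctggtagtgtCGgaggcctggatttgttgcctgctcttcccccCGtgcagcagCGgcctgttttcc
Neurod1: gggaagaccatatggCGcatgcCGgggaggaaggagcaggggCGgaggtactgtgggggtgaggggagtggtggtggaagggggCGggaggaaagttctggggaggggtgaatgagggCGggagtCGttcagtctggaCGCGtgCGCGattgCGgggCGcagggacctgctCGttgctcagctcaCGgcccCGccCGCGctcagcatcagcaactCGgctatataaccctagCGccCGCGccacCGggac
Crx: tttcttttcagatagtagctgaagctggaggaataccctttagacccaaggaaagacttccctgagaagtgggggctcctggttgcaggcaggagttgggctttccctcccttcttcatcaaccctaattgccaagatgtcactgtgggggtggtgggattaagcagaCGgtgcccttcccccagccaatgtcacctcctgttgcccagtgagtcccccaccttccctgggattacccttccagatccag
Nrl: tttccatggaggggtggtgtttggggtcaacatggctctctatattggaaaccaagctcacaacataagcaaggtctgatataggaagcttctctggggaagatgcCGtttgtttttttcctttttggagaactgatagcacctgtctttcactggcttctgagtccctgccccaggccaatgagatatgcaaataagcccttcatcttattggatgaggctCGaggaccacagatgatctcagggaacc
Nr2e3: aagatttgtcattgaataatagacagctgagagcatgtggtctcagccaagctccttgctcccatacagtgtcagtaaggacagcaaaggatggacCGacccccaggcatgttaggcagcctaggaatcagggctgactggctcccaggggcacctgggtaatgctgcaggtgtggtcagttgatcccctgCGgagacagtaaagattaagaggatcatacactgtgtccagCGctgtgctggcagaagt
Thrb: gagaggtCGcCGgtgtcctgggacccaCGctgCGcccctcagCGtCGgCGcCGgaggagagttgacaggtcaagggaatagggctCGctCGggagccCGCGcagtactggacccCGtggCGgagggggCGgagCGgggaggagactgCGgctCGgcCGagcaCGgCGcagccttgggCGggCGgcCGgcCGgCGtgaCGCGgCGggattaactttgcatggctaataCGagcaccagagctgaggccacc

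Crx has 1 CpG in this window, Nrl 2, Nr2e3 3, and Otx2 and Rxrg 6 each. Prdm1 has 15, Rorb 18, Mef2d 19, Neurod1 22 and Thrb 30, against a median of 10 over 17273 promoters. Fewer CpGs than at Crx were found in 7.17% of promoters, and fewer than at Thrb in 92.8%. The homeodomain motif bound by CRX and OTX2 (TAATCC, or GGATTA on the other strand) was found in 5.89% of promoters, and among the 10 genes in those of Crx and Thrb. In Crx it began 94 and 21 bases before the start, and in Thrb 46 bases before it. An E-box (CANNTG) occurred in 62.7% of promoters and in those of Nrl, Nr2e3, Otx2, Neurod1 and Prdm1, with 5 copies upstream of Nr2e3. The NRL half-site (TGCTGA, or TCAGCA) was in 14.8% of promoters and in those of Neurod1, Rorb and Mef2d.

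Brg1 was present at the start of all 10 genes at P0, against 65.3% of placed genes. The highest peak stood at Rorb, a retinoid-related orphan receptor that acts upstream of Nrl, with a fold enrichment of 14.05 and rank 111 of the 8644 starts with a peak. Neurod1, a basic helix-loop-helix factor of newly formed photoreceptors, followed at 11.8 (rank 320). Crx reached 10.4 and Mef2d, a MADS-box factor that works with CRX at photoreceptor enhancers, 10.2. Prdm1, the zinc-finger repressor that keeps photoreceptor precursors from the bipolar fate, stood at 8.46, Otx2 at 8.44, Nr2e3 at 7.37 and Thrb at 7.18. Nrl (5.93) lay close to the median of 5.86 over starts with a peak, and Rxrg (4.46, rank 6779) below it. These values come from 1 library and have no replicate check.

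H3K27Ac at the start was higher in all 5 later wild-type libraries than in both P0 libraries at 6 of the 10 genes (Crx, Nrl, Nr2e3, Otx2, Neurod1 and Thrb), in the deposited heights, against 4.47% of the 9146 genes tested. A peak was listed in both P0 libraries at 7 genes (59.4% of placed genes) and in the single P12 library at 9 (65.1%). Both P14 libraries listed one at 9 genes (45.5%), and both P21 libraries at 9 (38.5%). At Nrl no peak was listed in either P0 library, and the fold enrichment was 22.2 at P12, 21.5 and 25.5 at P14, and 18.7 and 18.6 at P21. With no P0 peak, this gene was tested only because of its later peaks and could not be lower in them. At Nr2e3 the P0 libraries gave 3.84 and no peak, and the wild-type libraries after P0 gave 14.3 at P12, 13.6 and 17.9 at P14, and 13.5 and 13.4 at P21. Within 2 kb of the start, both rod genes went from at most 1 weak peak at birth to a peak in every later library. Peaks merged over the wild-type libraries of P0, P14 and P21 gave a region over each start that reached beyond this window. In that region the P0 heights were 3.34 and 4.93 at Nrl, and 3.84 and 4.42 at Nr2e3.

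The photoreceptor genes that act earlier already carried H3K27Ac within 2 kb of the start in both libraries at birth. The lower P0 height of each was close to those in the merged regions over Nrl and Nr2e3. At Otx2 the heights were 7.75 and 4.13 at P0, 16.6 at P12, 27.1 and 22.4 at P14, and 19.5 and 14.2 at P21. At Crx they were 3.90 and 8.09 at P0, 19.1 at P12, 26.3 and 14.5 at P14, and 20.6 and 13.5 at P21. The Crx start lies 2.66 kb from that of Crxos, whose window holds the same H3K27Ac peaks, so these heights cannot be assigned to one of the genes. At Neurod1 the heights were 4.36 and 11.1 at P0, 18.2 at P12, 18.4 and 17.3 at P14, and 13.8 and 15.2 at P21. For all 3 genes both P14 and both P21 libraries lay above both P0 libraries.

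The cone genes differed from each other. At its first annotated start Thrb gave 4.23 and 7.05 at P0, 13.2 at P12, 22.1 and 25.95 at P14, and 16.7 and 10.1 at P21. There was no overlap between P0 and either later stage. The start of LOC115488350 lies 0.638 kb downstream of this Thrb start and shares these peaks, so these heights cannot be assigned to one of the genes. The second annotated start of Thrb, far downstream, had no H3K27Ac peak in any library. Which start of Thrb is used in cones was not tested. Rxrg had no peak in 5 of the 7 wild-type libraries, and the 2 peaks it had were weak, at 4.43 in 1 P0 library and 3.81 in 1 P14 library. Among the remaining genes the stages overlapped in at least 1 comparison of deposited heights. Rorb stood at 14.7 and 10.9 at P0 and between 6.72 and 16.2 afterwards. Prdm1 gave 5.09 and 7.06 at P0 and between 4.23 and 10.003 afterwards. Mef2d gave 6.76 and 20.5 at P0, and its later wild-type values ranged from 8.59 to 23.3.

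**Figure D1:**
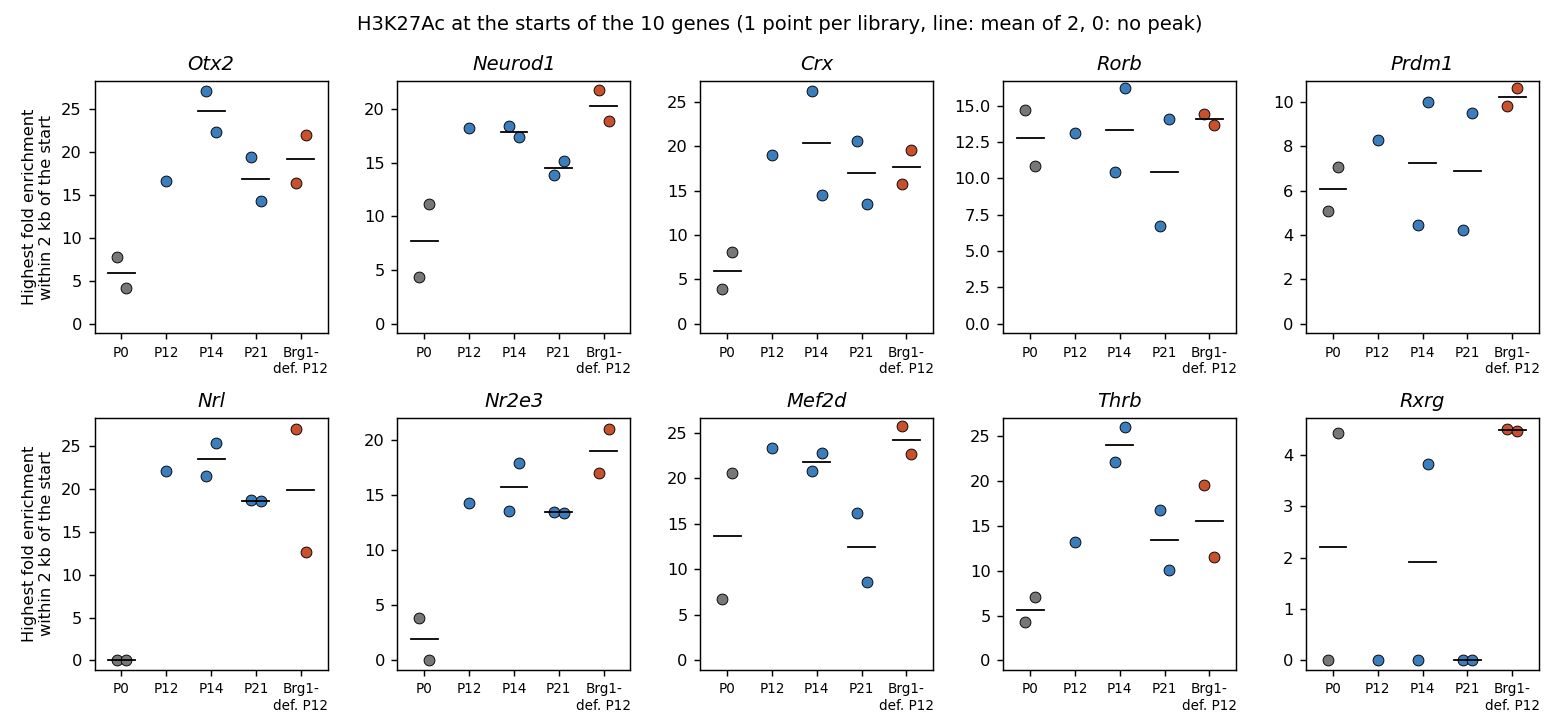
H3K27Ac at the starts of the 10 genes, as the fold enrichment of the highest peak within 2 kb of the start (vertical axis) in each library, grouped by stage and genotype (horizontal axis); each point is 1 library, each line is the mean of 2 and 0 means that no peak was listed. Nrl and Nr2e3 sit at or below 3.84 at P0 and between 12.7 and 27.01 in all later libraries, whereas Rorb does not separate by stage and Rxrg never exceeds 4.49.

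The stages were compared with limma on log2 of the scaled height plus a pseudocount of 3.56, over the 6 wild-type libraries of P0, P14 and P21. None of the 9146 genes tested passed an adjusted p of 0.05 (0% called) in P14 or P21 against P0, while 675 and 942 had an unadjusted p under 0.05. When a peak was required in every library, 17 and 23 genes passed, none of them among the 7 members that could be tested that way, which leaves out Nrl, Nr2e3 and Rxrg. The fitted differences below are as fitted, and their median over all genes was -0.15 at P14 and -0.23 at P21, or -0.015 and -0.48 without scaling.

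At Nrl the fitted difference in H3K27Ac, a log2 difference that depends on the pseudocount because no P0 peak was listed, was 2.77 ± 0.43 (SE) for P14 against P0 (adjusted p = 0.366) and 3.04 ± 0.43 for P21 against P0 (adjusted p = 0.231). Over the alternatives they ran from 1.68 to 4.44 and from 1.94 to 4.74. In the main fit Nrl was tested only through its later peaks and could differ only upward, also in the counts below. Nr2e3, with 1 weak P0 peak, followed with 1.76 ± 0.50 at P14 (adjusted p = 0.473) and 2.11 ± 0.50 at P21 (adjusted p = 0.261). The P21 differences were 1.56 ± 0.67 at Crx, 1.54 ± 0.58 at Otx2, 1.29 ± 0.54 at Thrb and 1.16 ± 0.50 at Neurod1, with adjusted p-values between 0.439 and 0.508. None of these differences passed the test. Those of Mef2d (0.40), Prdm1 (0.38), Rorb (0.09) and Rxrg (-0.56) were smaller than or close to their standard errors, and the sign at Rorb and Mef2d turned without scaling. The median over the 10 genes was 1.06 at P14 and 1.23 at P21. After scaling, both P21 libraries lay above both P0 libraries at 7 of the 10 genes (Crx, Nrl, Nr2e3, Otx2, Neurod1, Prdm1 and Thrb), against 15.7% of all genes, and below them at 0, against 28.1%. At P14 the counts were 6 above (14.8%) and 0 below (29.1%). Prdm1 separated at P21 only after scaling.

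H3K4me3 was present at the start of all 10 genes in every library, P0 included, against 74.4% of placed genes at P0, 74.7% at P12, 72.7% at P14, 71.3% at P21 and 73.1% in the Brg1-deficient library. The P0 peaks of this mark had served to place the starts, so presence at P0 is not independent of the placement. At P0 the height spanned a wide range. Nr2e3 (4.81 and 3.77) and Nrl (5.81 and 5.28) had the weakest peaks, and Rorb (56.1 and 54.3), Mef2d (37.6 and 69.0) and Thrb (45.5 and 46.5) the strongest. The 2 rod genes were therefore low for H3K4me3 at the stage at which they lacked H3K27Ac within 2 kb of the start or nearly did.

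The rod genes also had the largest rises of the 10. Nrl went to 23.5 at P12, 31.4 and 36.7 at P14, and 77.8 and 33.4 at P21. Nr2e3 went to 23.4 at P12, 21.8 and 31.2 at P14, and 69.6 and 20.5 at P21. On the log2 scale of scaled height plus 7.89, Nrl rose by 1.78 ± 0.26 (SE) at P14 (adjusted p = 0.003) and by 2.12 ± 0.26 at P21 (adjusted p = 0.001). Nr2e3 rose by 1.62 ± 0.27 at P14 (adjusted p = 0.007) and by 1.90 ± 0.27 at P21 (adjusted p = 0.002). All 5 later wild-type libraries were above both P0 libraries in the deposited heights at both genes and at Otx2, against 2.52% of all genes. They were the only 2 of the 10 called. Over all 9974 genes tested, 168 were called at P14 (1.68%), 54 of them higher (0.541%) and 114 lower (1.14%). At P21 606 were called (6.08%), 85 of them higher (0.852%). Between P14 and P21 a single gene was called, higher at P21 (0.0100%), and it was none of the 10. At P14 the call of Nrl was lost with a 5-kb window (0.90) and that of Nr2e3 without P14 replicate 3 (1.43), and both were lost without scaling. At P21 both calls held in all 12 alternatives.

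Crx, with 6.46 and 20.2 at P0, 43.6 at P12, 26.3 and 16.9 at P14, and 53.0 and 25.9 at P21, gave a P21 difference of 1.16 ± 0.33 that missed the threshold (adjusted p = 0.055). Otx2, with 13.4 and 15.2 at P0, 41.5 at P12, 22.8 and 23.7 at P14, and 46.8 and 19.6 at P21, gave 0.77 ± 0.25 (adjusted p = 0.092). Crx passed when a peak was required in every library (1.07, adjusted p = 0.011), with a 5-kb window (1.15, adjusted p = 0.049) and without P0 replicate 2 (1.64, adjusted p = 0.003), and gave 0.69 (adjusted p = 0.392) without P0 replicate 1. Both P21 libraries of Crx and of Otx2 lay above both P0 libraries. After scaling this held for 6 of the 10 genes at P21 (Crx, Nrl, Nr2e3, Otx2, Neurod1 and Thrb), against 14.7% of all genes, and for 4 at P14, against 18.6%. Neurod1 and Thrb separated at P21 only after scaling.

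At the other end, Rorb and Rxrg were lower in both later stages than at P0 without overlap. Rxrg fell short of the threshold, with 21.2 and 16.4 at P0, 19.8 at P12, 12.8 and 9.82 at P14, and 13.4 and 5.54 at P21 (-0.70 ± 0.26, adjusted p = 0.145). Rorb gave 56.1 and 54.3 at P0, 34.3 at P12, 42.0 and 29.2 at P14, and 49.0 and 28.0 at P21 (-0.50 ± 0.28, adjusted p = 0.394). Below both P0 libraries lay 24.9% of all genes at P14 and 30.6% at P21, where 5.22% were called lower. Neurod1 (15.1 and 17.0 at P0, 50.3 and 13.0 at P21), Prdm1, Thrb and Mef2d differed by 0.48 or less between P0 and P21, each with an adjusted p above 0.4.

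**Figure D2:**
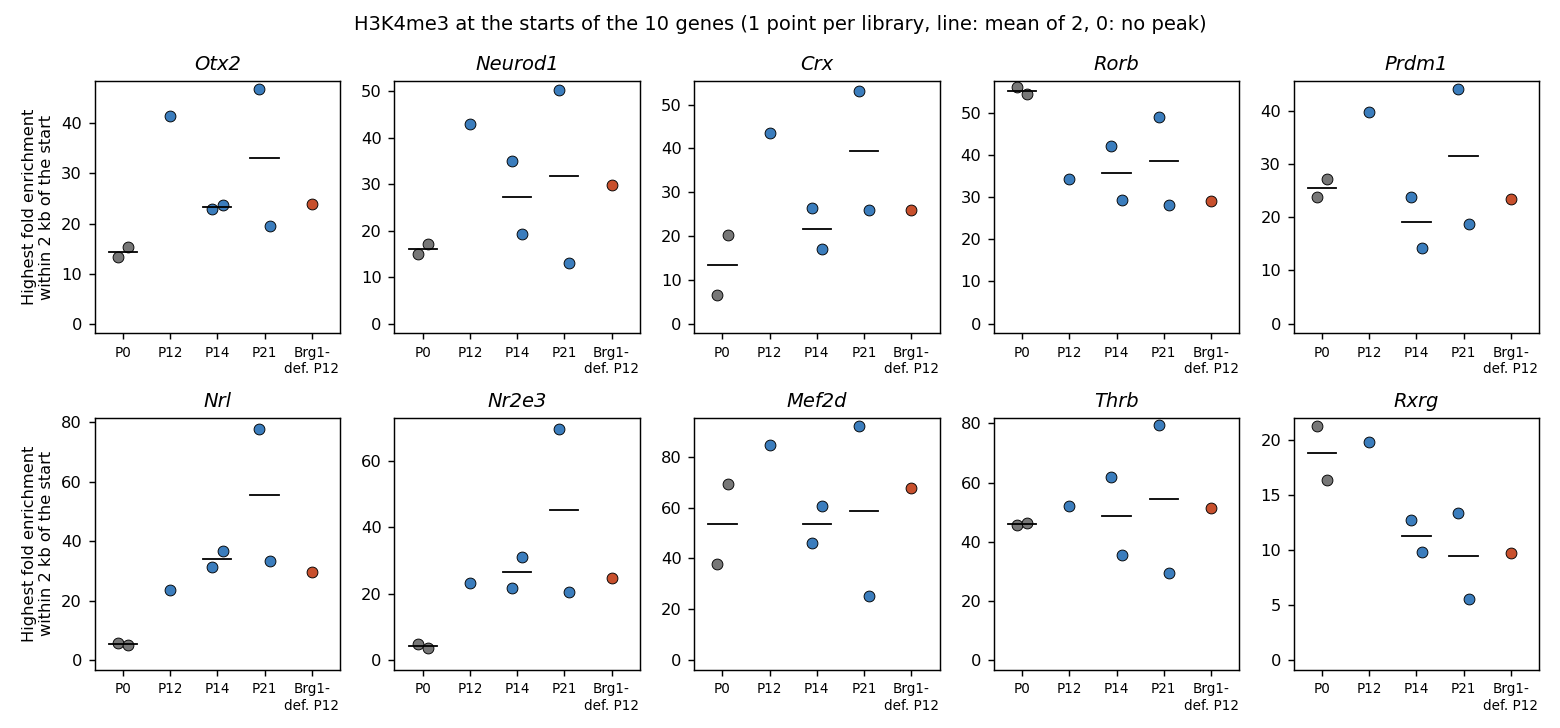
H3K4me3 at the starts of the 10 genes, as the fold enrichment of the highest peak within 2 kb of the start (vertical axis) in each library, grouped by stage and genotype (horizontal axis); each point is 1 library and each line is the mean of 2. Nrl and Nr2e3 start at 5.81 or less at P0 and reach 20.5 or more in every later library, and Rxrg declines from 21.2 and 16.4 at P0 to 13.4 and 5.54 at P21.

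**Figure D3:**
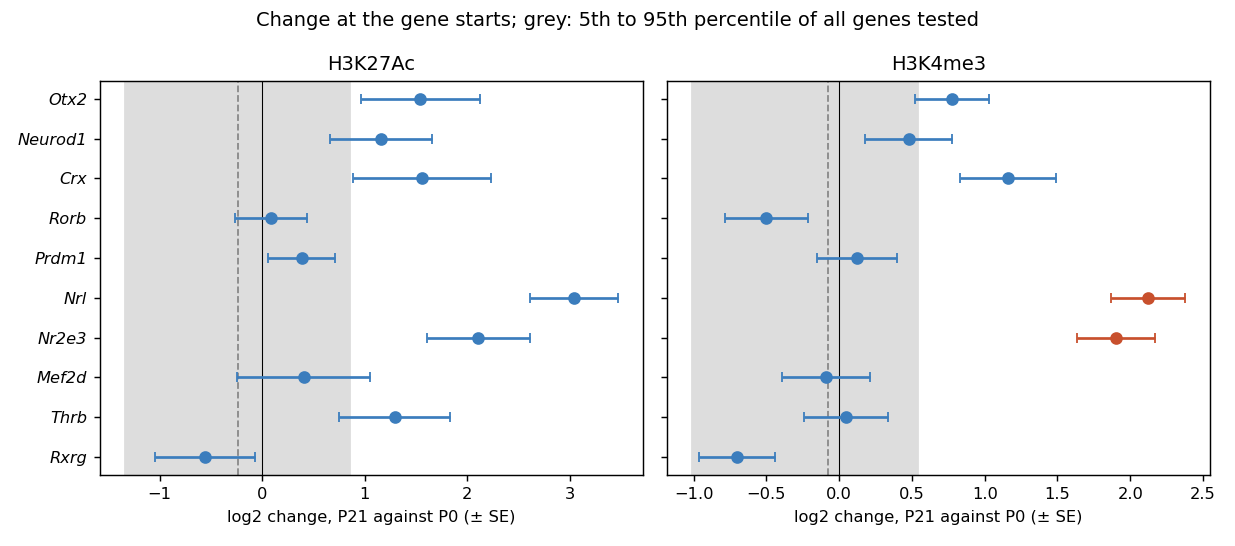
Log2 difference in scaled peak height between P21 and P0 at the start of each of the 10 genes (horizontal axis; points with bars of 1 SE, n = 2 libraries a stage), for H3K27Ac (left) and H3K4me3 (right); red points passed an adjusted p of 0.05, the grey band spans the 5th to the 95th percentile of all genes tested and the dashed line is their median. Nrl and Nr2e3 lie farthest to the positive side for both marks, and their H3K4me3 differences are the red ones.

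Promoters poor in CpG differed from the others in H3K4me3 across the genome. Of 4020 placed genes with 6 or fewer CpGs in the 250-base window, a group that holds Crx, Nrl, Nr2e3, Otx2 and Rxrg, 27.4% had an H3K4me3 peak in both P0 libraries, against 94.9% of the 9215 others. Among the tested genes of the low-CpG group 4.69% were called higher at P21 than at P0, and 10.9% lower. In the other group 0.330% were called higher and 4.45% lower. Nrl and Nr2e3 belonged to the low-CpG genes called higher, whereas Rxrg, with as many CpGs as Otx2, had its higher H3K4me3 at P0. The limit of 6 was set with the values of the 10 genes known, so these shares are a description.

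H3K27me3 covered the start in both P0 libraries at 5 of the 10 genes, against 24.3% of placed genes, and all 5 also had H3K4me3 there (20.4% of placed genes have both). The values given here are the scores of the deposited islands, which are broad enriched domains. Otx2 lay in the strongest, with scores of 2167 and 3245 over 32.0 and 31.2 kb. At P12 the islands over the Otx2 start scored 523 and 128, at P14 there was none, and at P21 there was 1, of score 110, in 1 of 2 libraries. Neurod1 lay in islands of 13.8 and 14.2 kb with scores of 482 and 817 at P0, and in none afterwards. The pair of early activators thus carried a wide H3K27me3 domain at birth that was smaller or absent later.

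At Nrl (133 and 112) and Mef2d (150 and 294) the P0 islands were small and reached only part of the window. At Nrl they covered 1.13 and 0.328 kb of it. Neither gene had an island in any later library. Of the 5 genes with an island at P0, these 2 and Neurod1 had none in any P14 or P21 library, against 11.8% of the 3213 genes with a P0 island. Rxrg behaved differently: its islands were scored 93 and 116 at P0, 224 and 104 at P12, 107 and 327 at P14, and none and 135 at P21. Prdm1 had a weak island in 1 P0 library (70) and 1 P12 library (46). Crx, Nr2e3, Rorb and Thrb had none in any of the 9 libraries. Counted over both libraries of a stage, an island lay at 2 of the 10 starts at P12 (25.95% of placed genes), at 1 at P14 (22.4%), at 0 at P21 (23.4%) and at 1 in the Brg1-deficient library (28.9%). The P12 libraries were made with another antibody, so their scores are not comparable with those of the other stages.

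Around the genes, H3K27Ac spread over more sequence after birth. In the 54.0 kb around Crx the H3K27Ac peaks covered 0.429 and 2.75 kb at P0, 24.9 kb at P12, 16.2 and 24.4 kb at P14, and 18.6 and 21.9 kb at P21. Around Nr2e3 they covered 0.194 and 0.813 kb at P0, 16.8 kb at P12, 11.4 and 17.3 kb at P14, and 11.97 and 15.2 kb at P21. Around Nrl the lengths were 1.21 and 1.53 kb at P0, 14.9 kb at P12, 9.90 and 18.4 kb at P14, and 10.5 and 15.7 kb at P21. Otx2 followed the same course, from 1.33 and 1.43 kb at P0 to 11.1 and 15.1 kb at P21. Around Rxrg at most 0.926 kb was covered in any library. The covered length was greater in both P21 libraries than in both P0 libraries at 9 of the 10 genes, Rxrg being the other, against 20.99% of 10966 genes with an H3K27Ac peak in reach. At P14 this held for 7 genes, against 16.8%. The total length covered by H3K27Ac peaks differed between libraries too, at 9.75 and 20.8 Mb at P0, 12.9 and 40.2 Mb at P14, and 16.8 and 34.4 Mb at P21. Those of P14 replicate 1 and P21 replicate 1 lie below that of P0 replicate 2, and the Crx, Nrl, Nr2e3, Otx2, Neurod1, Prdm1 and Mef2d loci were more covered in these 2 libraries than in it.

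**Figure D4:**
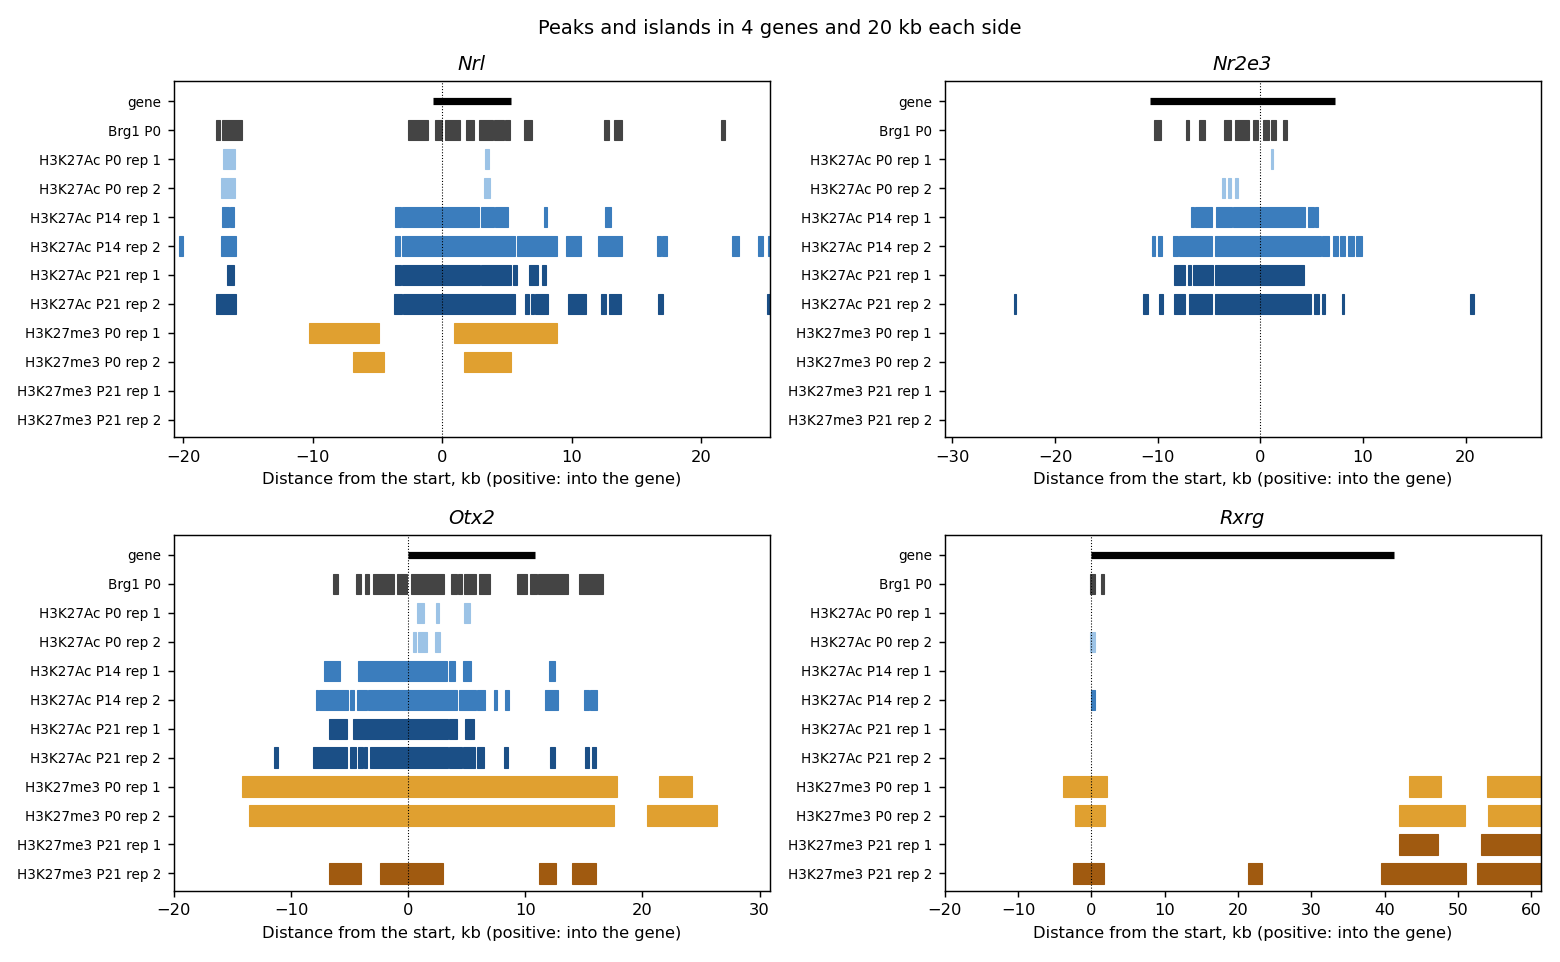
Peaks of Brg1 (1 library) and H3K27Ac (P0, P14 and P21) and islands of H3K27me3 (P0 and P21), with 1 row per library, around Nrl, Nr2e3, Otx2 and Rxrg, plotted by distance in kb from the start of the gene, with positive distance in the direction of transcription and the gene as a black bar. Acetylated stretches fill in around Nrl, Nr2e3 and Otx2 after P0 while those around Rxrg stay at or below 0.926 kb, and the P0 H3K27me3 islands of 32.0 and 31.2 kb span Otx2.

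Away from the members' own starts, 72 merged H3K27Ac regions lay in these loci. No P0 peak was listed in 62 of them (86.1%), against 43.8% of all 33340 regions, and such a region could differ only upward. Both P21 libraries were above both P0 libraries in 24 (21.1% of all regions) and below in 1 (21.1%). None passed the test (0% of all regions called). An unadjusted p under 0.05 was found for 21 of the 72, a share close to that of all regions (8706 of 33340). With a replicate block 15 of the 72 were called at P21, again a share close to that of all regions (6604 of 33340). The regions given next are those with the largest fitted P21 difference at their gene, chosen after their values were seen, and are a description with no test. The first is a 6.98-kb stretch over the downstream end of Crx (mm9, chr7:16447049-16454032) with no peak at P0, 15.4 and 14.6 at P14, and 17.3 and 12.001 at P21, and it overlapped 2 Brg1 peaks. At Nr2e3 a 3.94-kb region 6.55 kb upstream of the start (chr9:59802530-59806466) had none at P0, 10.1 and 7.25 at P14, and 7.39 and 8.36 at P21, with 2 Brg1 peaks. It lies inside the annotated gene (chr9:59790641-59808704), which reaches upstream of the start used. At Otx2 a 2.91-kb region 6.63 kb upstream (chr14:49292378-49295289) had none at P0, 9.84 and 11.8 at P14, and 7.17 and 7.30 at P21, with 1 Brg1 peak. No fold is given for them, since P0 was listed without a peak.

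Many Brg1 peaks of P0 retinae in these loci overlapped H3K27Ac at the later stages and not at P0. The 10 loci held 82 Brg1 peaks, with 17 at Prdm1, 14 at Otx2, 13 at Nrl, 9 at Nr2e3 and 8 at Mef2d. Rorb held 7, Neurod1 5, Thrb 4, Crx 3 and Rxrg 2. Of the 82 peaks, 51 lay away from all starts used. The annotated genes of Prdm1 and Nr2e3 reach upstream of the start used, and Brg1 peaks near those ends count among the 51. H3K27Ac of both P0 libraries overlapped 13 of the 82 (15.9%), against 30.5% of 33380 Brg1 peaks in all placed loci. At P14 the overlap was 52 peaks (63.4%), against 25.9%, and at P21 again 52 (63.4%), against 22.97%. At 24 of the 82 peaks there was no H3K27Ac in either P0 library and H3K27Ac in all 4 libraries of P14 and P21, which was the case for 2.97% of Brg1 peaks in all placed loci. Of these 24, 6 were at Nrl, 6 at Otx2, 4 at Nr2e3, 3 at Mef2d, 2 each at Crx and Prdm1, and 1 at Rorb. Brg1 itself was profiled only at P0, in tissue other than that of the histone marks, and peaks in 1 locus share their libraries and are not replicates. The P0 count rose to 25 without P0 replicate 1 and to 27 when 1 replicate sufficed. The share over all placed loci is not given for these settings, so whether the lower P0 share holds under them cannot be told.

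**Figure D5:**
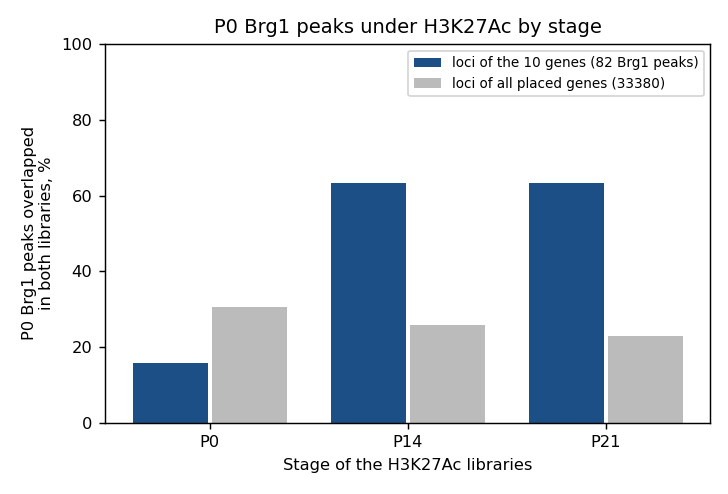
Share of P0 Brg1 peaks overlapped by H3K27Ac in both libraries of each wild-type stage (vertical axis, percent), for the 82 peaks in the loci of the 10 genes and for the 33380 peaks in the loci of all placed genes. The share in the 10 loci goes from 15.9% at P0 to 63.4% at P14 and P21, and that in all loci from 30.5% to 25.9% and 22.97%.

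Several of the genes have more than 1 annotated start. Rorb has a second start 110 kb downstream of the first, which gives a shorter transcript, and there H3K27Ac was absent in 1 P0 library and 3.88 in the other, 10.8 at P12, 10.1 and 10.7 at P14, and 7.79 and 9.20 at P21. H3K4me3 at that start was 4.55 and 4.22 at P0, 21.9 at P12, 9.31 and 25.0 at P14, and 37.3 and 17.4 at P21. At the first Rorb start the H3K4me3 values of both later stages were lower than at P0, so the starts of this gene moved in opposite directions in the deposited heights of all 4 libraries of P14 and P21. This difference was not tested. No Brg1 peak lay within 2 kb of the second Rorb start, whereas the first had the highest of the 10 genes. A Brg1 peak with a fold enrichment of 3.15, 107 kb downstream of the first start, lay just outside the window of the second. The second starts of Thrb, 321 kb downstream, and of Rxrg, 19.9 kb downstream, had neither an H3K27Ac nor an H3K4me3 peak in any library. The 4 starts of Otx2 lie within 4.91 kb and shared most of their peaks.

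Loss of Brg1 was read at P12 by comparing Brg1-deficient with wild-type retinae. All 10 genes had H3K27Ac at the start in both Brg1-deficient libraries, against 65.6% of placed genes, and 9 had it in the wild-type library, against 65.1%. Nrl gave 27.01 and 12.7 without Brg1 and 22.2 with it. Nr2e3 gave 16.96 and 20.96 against 14.3, and Crx 15.8 and 19.5 against 19.1. In these deposited heights the wild-type value of Nrl lay between the Brg1-deficient ones, and that of Nr2e3 below both. Scaling changed both orders. Scaled wild-type Nrl (20.6) lay just above the Brg1-deficient 20.5 and above 9.94. Nr2e3 (13.2) lay between 12.9 and 16.4, and Crx (17.7) above 11.98 and 15.3. The 2 rod markers summed to 33.7 and 30.7 without Brg1 and to 34.5 with it, in deposited heights. Scaling multiplied the Brg1-deficient libraries by 0.760 and 0.781 and the wild-type one by 0.929, which lowers the Brg1-deficient sums more.

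No gene of 9408 passed the limma test for H3K27Ac in this comparison (0% called; 73 had an unadjusted p under 0.05), in which the single wild-type P12 library was assumed to vary like the other groups. The fitted log2 differences of the 10 genes ran from -0.42 ± 0.55 (SE) at Nrl to 0.95 ± 0.56 at Rxrg, and each had an adjusted p of 1. The standard errors lay between 0.36 and 0.76, and a p above the threshold does not show that the genotypes were alike. Rxrg, for which no wild-type P12 peak was listed, had weak peaks of 4.49 and 4.45 in the Brg1-deficient libraries. H3K4me3 had 1 library a genotype and no test. The ratio of scaled heights, Brg1-deficient over wild-type, ran from 0.736 at Rxrg to 1.91 at Nrl, with 0 of 10 genes past 2-fold against 4.53% of 9666 genes. In the deposited heights, whose median ratio over these genes was 0.674, it ran from 0.489 at Rxrg to 1.27 at Nrl, with 1 of 10 (Rxrg) past 2-fold against 18.2%. Scaling moved Neurod1, Rorb, Thrb and Mef2d from below 1 to above 1, so no direction is given for them. At the starts, H3K27me3 was listed for Rxrg in the Brg1-deficient library (118) and not for Otx2, whose start had 523 and 128 in the wild-type libraries. Elsewhere in the Otx2 locus the Brg1-deficient library held 2 islands, the stronger with a score of 113. The loss of Brg1 itself is not visible in these lists, and because Cre acts in a mosaic, these libraries hold chromatin from cells that keep Brg1, and their share was not measured here.

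Genes known to act with or downstream of the 10 factors were read in the same fits. Of 21 rod target genes, which encode the rod phototransduction and outer segment proteins, 12 were placed and tested for H3K4me3, and 10 were called higher at P21 than at P0 and 0 lower, against 0.852% and 5.22% of all genes. No P0 peak was listed for 6 of the 10 (Guca1a, Cnga1, Pde6b, Gngt1, Grk1 and Nxnl1) and only 1 library listed one for Sag and Pdc. Over all genes tested, 33 of the 71 with no P0 peak were called higher. With a peak in 1 P0 library it was 8 of 57, and with a peak in both 44 of 9846. The 0.852% is therefore not a like-for-like background for these rod genes. The size of these differences depends on the pseudocount, and the 6 entered the fit only through the later stages. Prph2 and Abca4, named after their values were seen, had a peak in both P0 libraries. Prph2, a structural protein of the outer segment disc rim, went from 5.44 and 4.58 at P0 to 57.7 and 20.01 at P21 (1.69 ± 0.26, adjusted p = 0.003). Abca4, the retinoid transporter of the disc, went from 8.13 and 8.38 to 52.2 and 21.7 (1.36 ± 0.26, adjusted p = 0.009). Gnb1, which is used in many tissues, and Rom1 did not pass. For H3K27Ac 0 of the 12 passed limma's test and 11 had an unadjusted p under 0.05, against 942 of the 9146 genes tested. No P0 peak was listed for 8 of the 12, against 383 of the 9146, and such genes could differ only upward. Of 11 cone target genes only 2 were tested for H3K4me3 and 0 passed.

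Among 18 other regulators of photoreceptor development, 11 were tested for H3K4me3, and 2 rose and 2 fell by P21, against 0.852% and 5.22% of all genes. Samd7 (1.43 ± 0.32, with a peak in 1 of the 2 P0 libraries) and Samd11 (1.38 ± 0.28), rod-enriched partners of Polycomb complexes, rose. Olig2 (-1.41 ± 0.28) and Foxn4 (-1.23 ± 0.26), which are expressed in progenitor cells, fell. Of 8 bipolar fate genes 4 were tested, and 3 of them fell, against the same 5.22%: Isl1 (-1.63 ± 0.28), Lhx4 (-1.46 ± 0.28) and Vsx1 (-1.17 ± 0.27). All 4 lists were chosen with earlier results of these data known, and the called genes were named after their values were seen.

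The H3K27Ac heights of the 10 genes over the 9 libraries varied together in part. Pearson's r of the log2 scaled heights was 0.955 between Crx and Neurod1, 0.912 between Nrl and Nr2e3, and 0.901 between Otx2 and both Crx and Nr2e3. Rorb was little related to Nrl (-0.012). Over 9407 other genes, those most like Nrl were Ckm (0.995), Mpp4 (0.984) and Ccdc24 (0.980). Those most like Nr2e3 were Madd (0.957), Synpo2 (0.955) and Alad (0.948). Crx was matched by Crxos (1), which shares its peaks, and then by Rom1 and Eml3 (0.967 each), which share a window with each other. Otx2 was followed by Bmf (0.969) and by Sarm1 and Vtn (0.967 each), which also share one. The 9 points share stages and library scaling, most of the spread is the step between P0 and the later libraries, and no test was made.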

How the data were processed

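Retinal ChIP-Seq libraries were grouped by the labels. According to the submitters' processing notes, reads were handled with CASAVA, BWA (0.5.9-r26), Picard (1.65), SAMtools, R (2.14.0), MACS2 (2.0.9), bedtools (2.17.0) and SICER (1.1) on mm9. Which replicates or inputs were combined is not given in the sources used here, and lists were called per library. For Brg1, H3K27Ac and H3K4me3 the authors deposited peaks with a fold enrichment over background (a ratio) and a −log10 q-value. For H3K27me3 they deposited islands with a score. A peak list omits values under the caller's threshold, so 0 means not listed.

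GRCm38.p6 starts of RefSeq were shifted by the offset, from coding genes within 5 Mb weighted by distance (weight 0.5 at 200 kb), that put most starts within 1 kb of wild-type P0 H3K4me3 peaks. Of 17273 genes 13235 were placed, and the others were left out. Heights were the highest peak within 2 kb, scaled by the median over genes with a peak in every library. limma (3.58.1) in R (4.3.3) was run on log2(scaled height + the 5th percentile), with at least 2 libraries with a peak and Benjamini-Hochberg adjustment at 0.05. Regions were H3K27Ac peaks merged over libraries. Tables were made in Python (3.11.15). The scripts were tested on simulated data. The members and lists were chosen with earlier results of these data known. Named beyond the members were, by rule, the 3 genes most correlated with Nrl, Nr2e3, Crx and Otx2, and up to 4 genes a list called for H3K27Ac at P21, which gave none. Genes of the lists named for H3K4me3 fall outside that rule and were chosen after their values were seen. Alternatives were other scalings, pseudocounts, windows, filters, peak thresholds, a replicate block and libraries left out. Overlap was 1 bp or more. The marker lists covered rods, bipolar cells, Muller glia, retinal pigment epithelium, lens, blood and immune cells and liver.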

Additional observations from a re-analysis of the deposited data

How the results depend on the processing

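Among the fitted differences of the members against P0 and between genotypes at P12, 507 kept their direction and side of the threshold under the alternatives, 28 turned sign, 4 lost a call and 5 gained one (Crx at P21 for H3K4me3 in 4 alternatives, Otx2 in 1). For P21 against P14, whose values are not given per gene, 22 of 114 turned sign for H3K27Ac and 8 of 110 for H3K4me3, with 0 called. Among the summary counts 169 stayed within 1.5 times and 44 did not. The sign turned only at genes and comparisons with no call. For H3K27Ac at P14, leaving out 1 library at a time gave -0.12 to 0.12 at Prdm1 (-0.087 with a window of 1 kb), -0.29 to 0.12 at Rorb (0.036 without scaling), -0.77 to 0.17 at Rxrg and -0.0040 to 1.13 at Mef2d. At P21 it gave -0.12 to 0.29 at Rorb (-0.27 without scaling) and -0.32 to 1.13 at Mef2d (-0.024 without scaling). For H3K4me3 it gave -0.51 to 0.072 at Prdm1, -0.20 to 0.54 at Thrb and -0.18 to 0.54 at Mef2d at P14, and -0.45 to 0.27 at Mef2d at P21. In Brg1-deficient against wild-type retinae the range was -0.031 to 0.24 at Nr2e3, -0.24 to 0.13 at Otx2, -0.032 to 0.073 at Prdm1 (-0.38 with a window of 5 kb) and -0.32 to 0.22 at Thrb, and without scaling the values were 0.16 at Otx2 and Thrb, 0.13 at Neurod1, 0.080 at Rorb and 0.041 at Mef2d.

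With the strongest 50% of peaks, H3K27Ac at P0 was at 2 member starts, and H3K4me3 at 4 (P0), 5 (P14) and 6 (P21). With the same peaks H3K27me3 at P14 was at 0, and both H3K4me3 and H3K27me3 at P0 at 1. H3K27me3 at P21 was at 2 starts in either replicate, and at 0 to 2 with a library left out. The share over all placed genes is not given for these settings. Whether the member counts, or their differences between stages, depart from those of all genes therefore cannot be told. The 13 Brg1 peaks overlapping P0 H3K27Ac became 4 with 50% of the peak covered, 27 when 1 replicate sufficed, and 15 to 25 with a library left out. With a peak required in every library, 17 (P14) and 23 (P21) genes were called for H3K27Ac, and 64 and 178 regions. For H3K4me3 at P14 the 168 calls became 8 without scaling, 328 with a pseudocount of 1 and 41 to 152 with a library left out (41 without P14 replicate 2). At P21 the 606 became 40 without scaling and 136 to 409 with a library left out (136 without P21 replicate 1, 158 without P21 replicate 2, 273 without P0 replicate 2). For P21 against P14 the single call became 0 without scaling, with a peak in every library or with a window of 5 kb, 2 with a window of 1 kb or only the stages compared, 24 with a pseudocount of 1, and 0 to 2 with a library left out. For regions the 0 calls became 2807 (P14) and 4540 (P21) with a pseudocount of 1, 4160 (P14), 5623 (P21) and 728 (P21 against P14) with equal numbers of peaks, 7147 at P21 with only the stages compared, and 0 to 3157 at P21 with a library left out (3157 without P21 replicate 2). For the H3K4me3 ratio at P12, no scaling, an alternative added after seeing the data, gave 1759 genes past 2-fold in place of 438 and 1 member in place of 0. The cause of these shifts was not tested.

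The replicate block gave 1320 H3K4me3 calls and 6604 region calls at P21 against P0, added Crx and Otx2 to the called H3K4me3 starts, and changed no H3K27Ac call at starts. The stages share 2 replicate numbers at most, and the replicate differences correlated at 0.00019, 0.010 and 0.25 for H3K27Ac and 0.17 for H3K4me3, so the numbers are not taken as pairs. A block could not be fitted for H3K4me3 at P14 or for P12, nor could the single wild-type P12 library be left out. The read depth is unknown, and a peak too weak to be listed cannot be told from no enrichment.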

Other observations

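Markers of other cell types were read at their starts as a check on the tissue. Of the Muller glia markers, 2 of 2 had H3K27Ac at P0 and 1 of 2 in each later library. Of the 2 placed bipolar markers, 0 had H3K27Ac at P0 and 0 to 2 later. H3K4me3 at the bipolar marker Trpm1 was called higher at P21 than at P0, against 0.852% of all genes. No P0 peak was listed for Trpm1, which entered the fit only through the later stages. Of the 71 tested genes without a P0 peak, 33 were called higher. The other placed bipolar marker, Grm6, was not called, with 25.3 and 16.5 at P0 and 24.2 and 8.09 at P21. At the liver marker Apoa1 this mark was called lower, against 5.22% of all genes. The retinal pigment epithelium list had 1 placed marker, which had neither mark in any wild-type library.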
